A study of Mus musculus with 11 samples.

Results

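The 8 genes described here, Vcan, Acan, Hapln1, Has2, Cd44, Hyal1, Hyal2 and Ugdh, encode versican, aggrecan and the proteins that make, bind and break down hyaluronan. They were matched by gene symbol, under a rule that sets no threshold on their values. All 8 were found in both count tables, which together list 28591 gene symbols. RNA was sequenced from mouse mitral leaflets, the moving parts of the inlet valve of the left ventricle. The Ift88 experiment compared 3 libraries from Ift88 knockout mice (NfatC1Cre(+), Ift88f/f: both alleles floxed, Cre driven by Nfatc1) with 2 libraries from wild-type mice (NfatC1Cre(+), Ift88+/+) that carried the same Cre. The Dzip1 experiment compared 3 libraries from mice heterozygous for the S14R allele of Dzip1 (S14R/+) with 3 libraries from Dzip1+/+ mice. The age of the mice is not given in the sources used here.

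Nfatc1 is a gene of the endocardium and valve endothelium, so leaflet cells of other origin can keep Ift88, which encodes a protein of the transport system that builds cilia. The product of Dzip1 sits at the base of the cilium. Hyaluronan is a long sugar chain without a protein core, spun out at the plasma membrane by hyaluronan synthases, chiefly Has2 in the embryonic heart. Versican and aggrecan are large proteoglycans of the lectican family that bind hyaluronan through their N-terminal ends, and link proteins such as Hapln1 hold that bond. The swollen gel that results fills the endocardial cushions from which the valves form, and mouse embryos without Has2 or without versican fail to form normal cushions.

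Vcan and Hapln1 lie next to each other on chromosome 13 of the mouse build GRCm38 and are transcribed towards each other. Vcan spans chr13:89655312-89742509 on the minus strand and Hapln1 spans chr13:89539796-89611652 on the plus strand, with 43659 bases and 0 protein-coding genes between them (GENCODE M21). Acan lies at chr7:79053483-79115099, Has2 at chr15:56665627-56694539, Cd44 at chr2:102811141-102901665 and Ugdh at chr5:65413221-65435949. Hyal2 (chr9:107567945-107572779) and Hyal1 (chr9:107576927-107581710) stand in a row on the plus strand, 4147 bases apart.

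The promoters of Vcan, Acan and Hyal1 are printed because these were the 3 genes whose level was higher in every Ift88 knockout library than in both wild-type libraries. That of Hapln1 is printed as the neighbour of Vcan, whose groups overlapped. Each window runs from 250 bases before to 50 bases after the transcription start, 5′ to 3′ on the strand of the gene, from RefSeq on GRCm38.p6. Capitals mark matches on either strand to the GC box (GGGCGG) or the CCAAT box (CCAAT), 2 neighbouring matches running together where they overlap or touch.
Vcan promoter, chr13:89742463-89742762, minus strand: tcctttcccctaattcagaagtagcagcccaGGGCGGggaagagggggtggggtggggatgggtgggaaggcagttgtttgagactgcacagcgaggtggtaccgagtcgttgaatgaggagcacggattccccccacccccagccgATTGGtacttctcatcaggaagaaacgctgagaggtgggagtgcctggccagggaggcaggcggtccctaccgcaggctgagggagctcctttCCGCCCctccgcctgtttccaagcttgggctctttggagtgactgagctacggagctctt
Acan promoter, chr7:79052976-79053275, plus strand: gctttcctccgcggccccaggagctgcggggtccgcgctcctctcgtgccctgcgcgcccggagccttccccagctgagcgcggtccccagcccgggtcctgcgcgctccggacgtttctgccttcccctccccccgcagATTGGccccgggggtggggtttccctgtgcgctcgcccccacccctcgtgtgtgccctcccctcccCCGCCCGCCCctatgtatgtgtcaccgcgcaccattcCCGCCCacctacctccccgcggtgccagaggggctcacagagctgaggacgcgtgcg
Hyal1 promoter, chr9:107576700-107576999, plus strand: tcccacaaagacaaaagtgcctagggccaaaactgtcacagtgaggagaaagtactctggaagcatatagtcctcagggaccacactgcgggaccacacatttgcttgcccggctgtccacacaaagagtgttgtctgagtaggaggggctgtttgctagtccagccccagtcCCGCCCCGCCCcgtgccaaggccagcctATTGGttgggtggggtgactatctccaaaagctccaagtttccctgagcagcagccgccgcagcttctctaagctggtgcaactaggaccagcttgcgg
Hapln1 promoter, chr13:89540386-89540685, plus strand: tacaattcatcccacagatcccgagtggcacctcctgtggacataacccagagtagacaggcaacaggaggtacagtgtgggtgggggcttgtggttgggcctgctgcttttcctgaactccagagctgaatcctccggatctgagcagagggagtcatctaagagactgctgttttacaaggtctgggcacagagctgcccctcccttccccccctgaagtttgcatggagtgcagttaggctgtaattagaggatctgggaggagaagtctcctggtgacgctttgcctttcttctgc

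Of the 8 genes, 7 had a promoter in the RefSeq table and Has2 was matched to none. The GC box letters stood in 6 of those 7 promoters, all but that of Hapln1, and in 35.9% of all 27025 promoters in the table. The CCAAT letters stood in the Vcan, Acan and Hyal1 promoters and in 37.9% of all promoters. The TATA box letters (TATAAA), a Tcf/Lef core (ATCAAAG) and a Gli core (TGGGTGGTC) were in none of the 7 windows, against 14.2%, 3.72% and 0.244% of all promoters. These matches are letters in a window and describe no bound factor.

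Total counts per library, in M (mega), ran from 23.4 to 40.3 M in Ift88 knockout and from 31.4 to 53.8 M in Ift88 wild type, and from 86.0 to 93.5 M in S14R/+ and from 75.1 to 79.1 M in Dzip1 wild type. Ift88 itself had 3.03, 4.12 and 0.43 CPM (counts per M counts of the library) in the knockout libraries, against 6.31 and 21.2 CPM in the wild-type libraries, so every knockout library lay below both wild-type libraries. Dzip1 had 28.0 to 29.5 CPM in S14R/+ libraries and 27.6 to 32.3 CPM in Dzip1 wild-type libraries, a level that does not read the allele. The labels do not say that libraries of a group came from separate mice, so the p-values measure the spread between libraries. That spread was wide in the Ift88 experiment, with a biological coefficient of variation of 87.7%, against 7.85% in the Dzip1 experiment. The 2 Ift88 wild-type libraries stood apart from each other: the summed level of 15 cardiomyocyte markers was 17967 to 25805 CPM in knockout libraries, but 36023 CPM in wild-type replicate 1 and 107 CPM in wild-type replicate 2. The summed level of 10 endothelial markers was 1830 to 3008 CPM in knockout libraries, 277 CPM in wild-type replicate 1 and 3157 CPM in wild-type replicate 2. Markers of valve interstitial cells, the fibroblast-like cells of the leaflet, all had counts in every library of both experiments.

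In the Ift88 experiment, none of the 8 genes passed an adjusted p of 0.05 in edgeR's quasi-likelihood test, which called 0% of 14244 genes. At an unadjusted p under 0.05 edgeR listed 2 of the 8, Vcan and Acan, and 856 of all genes. DESeq2 called 1 of the 8, Vcan, beside 1.6% of all genes tested. All knockout libraries lay above both wild-type libraries for 3 of the 8 (Vcan, Acan and Hyal1), beside 15.4% of all genes, and below both for 0 of the 8, beside 7.55% of all genes. In the authors' deposited table the adjusted p was under 0.05 for 1 of the 8, again Vcan, beside 1.43% of the genes with an adjusted p there.

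Versican was the gene of the 8 that DESeq2 and the deposited table called higher in Ift88 knockout leaflets. Vcan, whose product is the main large proteoglycan of the embryonic valve cushions, had 264, 322 and 97.9 CPM in knockout replicates 1 to 3, against 41.9 and 34.9 CPM in the wild-type libraries. The lowest knockout library was still above the highest wild-type library, and the wild-type libraries lay close together, unlike those of most of the other 7 genes. The means were 228 ± 116 CPM in knockout (SD, n = 3) and 38.4 ± 5.01 CPM in wild type (SD, n = 2). The fitted log2 fold change was 2.41 ± 0.62 (SE) with a 95% interval of 0.92 to 3.91, and edgeR gave an adjusted p of 0.802. DESeq2 gave a log2 fold change of 2.34 and an adjusted p of 0.0214, and the authors' deposited table gave 1.84 and 0.0323.

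In DESeq2, Vcan was no longer called without knockout replicate 1 or 2, or after a correction for transcript length. Within DESeq2, the adjusted p was 0.226 without knockout replicate 1 (log2 fold change 2.19) and 0.457 without knockout replicate 2 (2.06), while it was 0.000251, 0.000792 and 0.0183 without knockout replicate 3, wild-type replicate 1 and wild-type replicate 2. These fits were chosen after seeing the data. Vcan has a long transcript, 12427 bases in its longest annotated form, and over all genes the median log2 fold change of knockout over wild type was -0.46 in the fifth of genes with the shortest transcripts and 0.74 in the fifth with the longest. After correcting each library for transcript length, the log2 fold change of Vcan was 0.83 ± 0.51 in edgeR (adjusted p 0.965) and 0.76 ± 0.58 in DESeq2 (adjusted p 0.875). The correction was fitted on these same libraries, and the part of length in the Vcan result was not tested. Among the 3 libraries whose titles share the prefix IR28N, knockout replicates 1 and 2 and wild-type replicate 1, the log2 fold change was 2.50 ± 0.42 with an edgeR adjusted p of 0.145. That fit holds a single wild-type library, so its error rests on the spread between the 2 knockout libraries. The other 2 libraries each have a title prefix of their own, so no other prefix gives a value.

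As for Vcan, the summed level of 10 valve interstitial markers was higher in every knockout library than in both wild-type libraries. It was 9357, 9035 and 6934 CPM in the knockout libraries, against 1806 and 4696 CPM in the wild-type libraries. Within the groups the order differed. Vcan was highest in knockout replicate 2 and lowest in wild-type replicate 2, but the markers were highest in knockout replicate 1 and lowest in wild-type replicate 1. Their part in the Vcan result was not tested. In such bulk samples, more cells of a type and more RNA per cell cannot be told apart.

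Aggrecan was detected in the knockout and not in the wild-type leaflets of the Ift88 experiment, at a low level. Acan, best known as the lectican of cartilage, had 3, 50 and 79 counts (0.0957, 1.24 and 3.38 CPM) in knockout replicates 1 to 3, against 0 counts in both wild-type libraries. The knockout libraries differed widely among themselves, and knockout replicate 1 was near the wild-type level of 0. Pooled, Acan had 132 of 94.99 M counts in knockout against 0 of 85.2 M in wild type. With the wild-type floor set at 3 counts over the group, the pooled level was at least 39.5-fold higher. This lower bound was 21.0-fold without knockout replicate 3, 57.6-fold without knockout replicate 1, 24.9-fold without wild-type replicate 1 and 14.5-fold without wild-type replicate 2. Pooling takes no account of the spread between libraries. The 95% interval of the edgeR fit began at 1.67-fold, with an edgeR adjusted p of 0.802.

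The summed level of 14 chondrocyte markers was 115, 92.6 and 90.0 CPM in the knockout libraries, against 34.1 and 59.5 CPM in the wild-type libraries, without overlap. Matn1 and Snorc were at 0 in all 5 libraries and Col9a2, Col11a2 and Cnmd at 0 in both wild-type libraries, while Col2a1, the collagen that defines cartilage, was at 0 in knockout replicates 1 and 3 and in wild-type replicate 2. Of the markers with counts in all 5 libraries, Sox5, Col11a1 and Sox9 were above both wild-type libraries in every knockout library. Col9a1, Col9a3, Comp and Sox6 overlapped. Sox9 is also among the valve interstitial markers, so the sums of these lists share a gene. The part of the chondrocyte markers in the Acan result was not tested.

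The link protein gene beside versican had overlapping groups. Hapln1 had 208, 245 and 102 CPM in knockout libraries, against 26.0 CPM in wild-type replicate 1 and 364 CPM in wild-type replicate 2. The 2 wild-type libraries held the lowest and the highest value of the 5. The log2 fold change was -0.05 ± 0.93 (95% interval -2.30 to 2.20), with an edgeR adjusted p of 0.997. The ratio of Vcan to Hapln1 counts, taken within each library, was 1.27, 1.31 and 0.961 in knockout, against 1.62 and 0.0957 in wild type, so wild-type replicate 2 stood below the other 4 libraries.

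Has2, the synthase that makes long hyaluronan chains, had 11.4, 13.7 and 23.03 CPM in knockout libraries, against 2.64 and 30.9 CPM in wild-type libraries. Cd44, the main cell-surface receptor for hyaluronan, had 163, 170 and 66.6 CPM in knockout libraries, against 38.4 and 186 CPM in wild-type libraries. Both genes repeated the order seen for Hapln1: wild-type replicate 1 was lowest, wild-type replicate 2 highest and the knockout libraries lay between. The log2 fold changes were -0.05 ± 0.94 for Has2 and 0.24 ± 0.68 for Cd44, both smaller than their standard errors. Has2 shares 182 exonic bases (4.30%) with its antisense gene Has2os, and without a stated strand setting reads there cannot be told apart. Has2os had 1.72, 1.27 and 0.514 CPM in knockout libraries, against 0.0955 and 3.72 CPM in wild-type libraries.

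Of the hyaluronidases, Hyal2 had overlapping groups and Hyal1 did not. Hyal2, a membrane-anchored enzyme that cuts long hyaluronan at the cell surface, had 190, 207 and 122 CPM in knockout libraries, against 114 and 418 CPM in wild-type libraries. Wild-type replicate 2 was the highest of the 5, and the log2 fold change was -0.65 ± 0.52 (95% interval -1.93 to 0.62). Hyal1, the lysosomal enzyme that cuts the pieces further, had 44.5, 36.4 and 48.2 CPM in knockout libraries, against 4.81 and 30.8 CPM in wild-type libraries. All 3 knockout libraries lay above both wild-type libraries, and they were close to each other. The log2 fold change of Hyal1 was 1.27 ± 0.72 (95% interval -0.47 to 3.01), with an edgeR adjusted p of 0.842. Leaving out wild-type replicate 2 gave 2.85, and leaving out wild-type replicate 1 gave 0.51.

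The counts of Hyal1 are uncertain, because 50.8% of its exonic bases are shared, on the same strand, with Naa80, which the tables list as Nat6, and 4.21% with Hyal3. Nat6 had 17.7, 16.1 and 10.8 CPM in knockout libraries, against 15.5 and 22.3 CPM in wild-type libraries, with overlapping groups. Within libraries, the ratio of Hyal1 to Hyal2 counts was 0.234, 0.176 and 0.394 in knockout, against 0.0421 and 0.0735 in wild type. This ratio was higher in every knockout library than in both wild-type libraries.

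Ugdh, which makes the UDP-glucuronic acid that both hyaluronan and chondroitin sulfate chains need, had 168, 311 and 208 CPM in knockout libraries, against 68.4 and 252 CPM in wild-type libraries. The groups overlapped, with a log2 fold change of 0.48 ± 0.54.

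**Figure D1:**
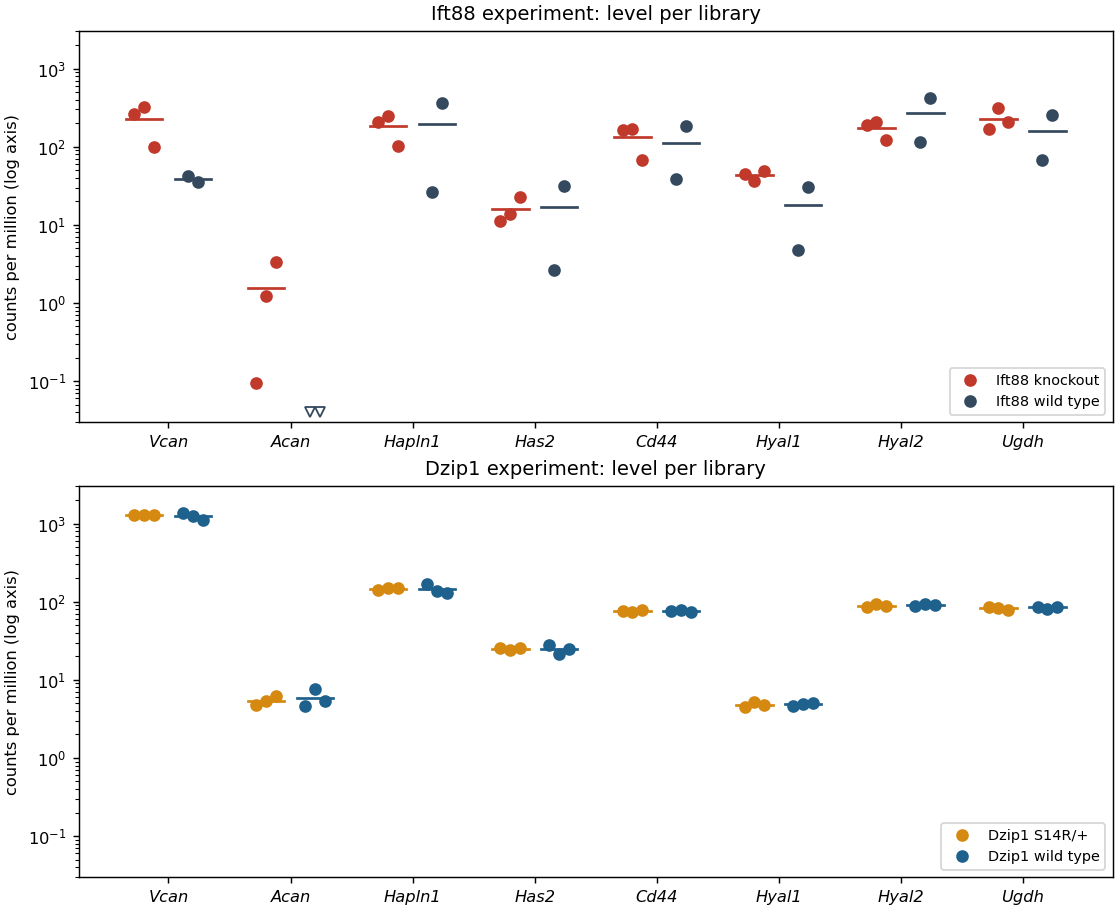
Level of each of the 8 genes in CPM on a log axis, 1 point per library and a bar at the group mean, in the Ift88 experiment (top, knockout n = 3, wild type n = 2) and in the Dzip1 experiment (bottom, 3 S14R/+ and 3 wild-type libraries). Open triangles mark 0 counts of Acan in both Ift88 wild-type libraries and are drawn at the foot of the axis. The wild-type points of Vcan lie together at 41.9 and 34.9 CPM, while those of Hapln1 lie far apart at 26.0 and 364 CPM; in the Dzip1 experiment the groups of every gene overlap.

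For 5 of these genes the direction depended on which wild-type library was left out. Wild-type replicate 1 was the lowest of the 5 libraries for 7 of the 8 genes, counting Acan, where it tied at 0 with wild-type replicate 2. For Hapln1, Has2, Cd44 and Hyal2, wild-type replicate 2 was also the highest. The share of all genes with these orders is not given here, so the orders are not read as a trait of these genes. Without wild-type replicate 2 the log2 fold changes were 2.53 for Hapln1, 2.29 for Has2, 1.49 for Cd44, 0.30 for Hyal2 and 1.43 for Ugdh. Without wild-type replicate 1 they were -0.96 for Hapln1, -0.94 for Has2, -0.46 for Cd44, -1.25 for Hyal2 and -0.13 for Ugdh, so the sign of all 5 differed between these fits. Vcan stayed at 2.14 and 2.73 in the same fits, and a lone wild-type library is assumed in them to vary like the knockout libraries. Among the libraries with the IR28N prefix the values were 2.82 for Hapln1, 1.94 for Has2 and 1.82 for Cd44. They were 2.78 for Hyal1, 0.50 for Hyal2 and 1.497 for Ugdh.

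**Figure D2:**
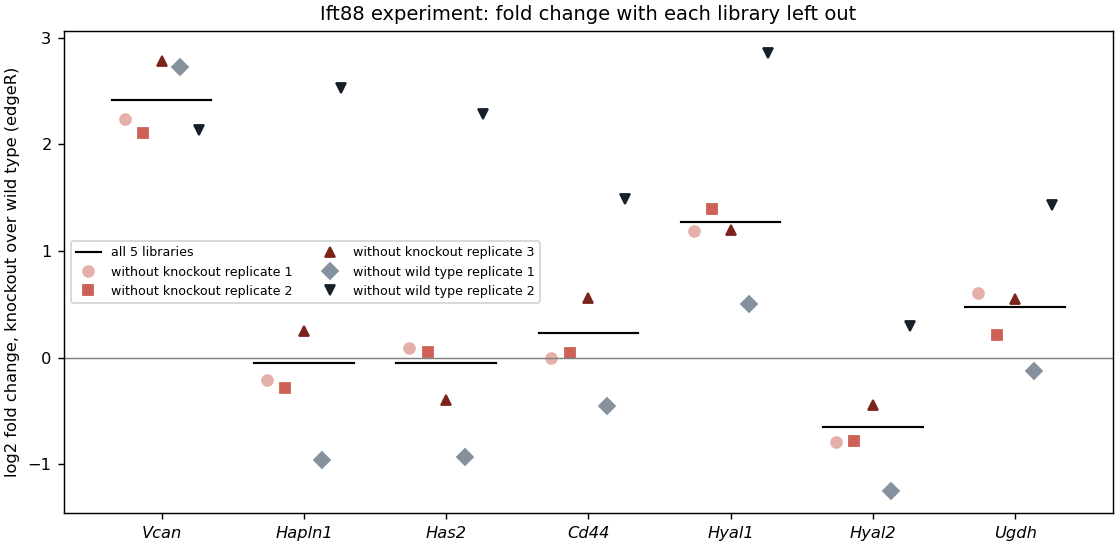
Fitted log2 fold change of Ift88 knockout over wild type for 7 of the 8 genes. Acan, at 0 counts in both wild-type libraries, is not drawn. Black lines are fits of all 5 libraries and symbols those with 1 library left out. The symbols for the 2 wild-type libraries lie on opposite sides of 0 for Hapln1, Has2, Cd44, Hyal2 and Ugdh, while all symbols for Vcan lie between 2.11 and 2.78.

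In the Dzip1 experiment, the 8 genes had overlapping levels in S14R/+ and wild-type leaflets. The genotypes are those of the sample titles, with which the column headers accord, but the statistics the authors deposited for this table follow a grouping of libraries that mixes these genotypes. Which grouping is right is unsure, and every S14R/+ value here rests on the titles. None was called by edgeR, which called 0% of 16160 genes, and none by DESeq2, which also called 0%. At an unadjusted p under 0.05 edgeR listed 0 of the 8 and 959 of all genes. S14R/+ libraries lay above all wild-type libraries for 0 of the 8, beside 4.58% of all genes, and below all of them for 0 of the 8, beside 5.86% of all genes.

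Vcan had 1298, 1280 and 1305 CPM in S14R/+ libraries, against 1349, 1257 and 1100 CPM in wild-type libraries. The 3 S14R/+ values lay within the wild-type range. The log2 fold change was 0.08 ± 0.07 with a 95% interval of -0.09 to 0.24 (edgeR adjusted p 0.888), so a change of the size fitted in the Ift88 experiment lies outside this interval. Acan was detected in all 6 libraries, with 4.70, 5.32 and 6.22 CPM in S14R/+ and 4.62, 7.60 and 5.35 CPM in wild type. Its log2 fold change of -0.10 ± 0.18 had the widest interval of the 8, from -0.51 to 0.30.

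Hapln1 had 139, 149 and 151 CPM in S14R/+ libraries, against 167, 136 and 131 CPM in wild-type libraries. Has2 had 25.3, 24.0 and 25.2 CPM in S14R/+ libraries, against 28.3, 21.5 and 24.8 CPM in wild-type libraries. For both genes, as for Vcan, the S14R/+ libraries lay closer together than the wild-type libraries. Cd44 had 76.2, 74.0 and 78.5 CPM in S14R/+ libraries, against 75.2, 78.5 and 73.4 CPM in wild-type libraries. Fitted log2 fold changes of these 3 genes were 0.03 ± 0.08, 0.01 ± 0.08 and 0.02 ± 0.04.

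Hyal1 had 4.44, 5.22 and 4.71 CPM in S14R/+ libraries, against 4.62, 4.87 and 5.04 CPM in wild-type libraries. Hyal2 had 85.6, 92.2 and 87.8 CPM in S14R/+ libraries, against 87.2, 92.5 and 91.9 CPM in wild-type libraries. Neither hyaluronidase separated the genotypes. Ugdh had 84.3, 83.8 and 79.2 CPM in S14R/+ libraries, against 86.5, 80.9 and 86.0 CPM in wild-type libraries, again with overlapping groups. The log2 fold changes of Hyal1, Hyal2 and Ugdh were -0.0025 ± 0.10, -0.02 ± 0.04 and -0.02 ± 0.04.

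**Figure D3:**
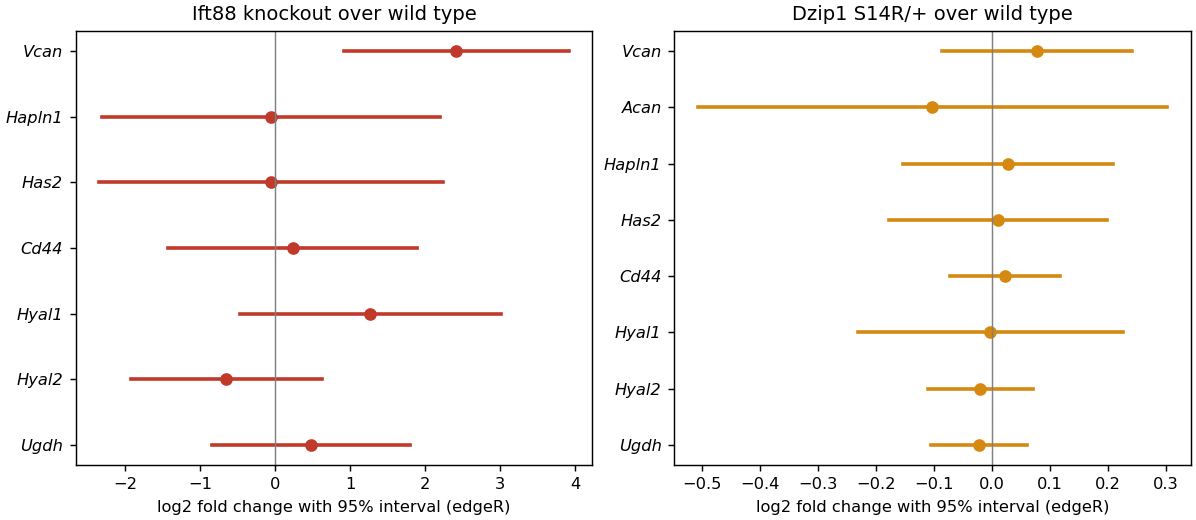
Fitted log2 fold change (points) with 95% interval (lines) of Ift88 knockout over wild type (left, 7 genes, without Acan) and Dzip1 S14R/+ over wild type (right, 8 genes), on axes of different scale. On the left the interval of Vcan, 0.92 to 3.91, is the only one of the 7 that lies wholly above 0. That of Acan, not drawn there, also lies above 0, from 0.74 to 16.8. On the right all 8 intervals include 0 and stay between -0.51 and 0.30.

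Levels of different genes were compared within each group as CPM per kilobase of the longest annotated transcript. In S14R/+ leaflets the order was Vcan (104), Hyal2 (29.8), Hapln1 (25.6), Cd44 (13.6), Ugdh (13.4), Has2 (5.86), Hyal1 (1.59) and Acan (0.736 CPM per kilobase). Dzip1 wild-type leaflets had the same order except that Ugdh (13.7) stood before Cd44 (13.5), and in both groups the libraries of these 2 neighbours overlapped while those of all other neighbours did not. Versican thus had the highest level of the 8 in the Dzip1 experiment.

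In Ift88 knockout leaflets the order was Hyal2 (58.4), Ugdh (37.2), Hapln1 (32.4), Cd44 (23.7), Vcan (18.3), Hyal1 (14.3), Has2 (3.79) and Acan (0.214 CPM per kilobase). Neighbours from Hyal2 down to Hyal1 overlapped, whereas Hyal1, Has2 and Acan did not overlap one another. Levels and count ratios here are not corrected for the shift of Ift88 fold changes with transcript length. Vcan has the longest transcript of the 8, at 12427 bases. In Ift88 wild-type leaflets Vcan stood lower, at 3.09 CPM per kilobase, after Hyal2 (89.7), Hapln1 (34.1), Ugdh (26.0), Cd44 (20.0), Hyal1 (5.90) and Has2 (3.96), with all neighbours overlapping except Acan at 0. The tables were made separately, so levels across them are set side by side without a test: the ratio of Vcan to Hapln1 counts was 8.59 to 9.34 in S14R/+ and 8.07 to 9.21 in Dzip1 wild-type libraries, where the highest in the Ift88 experiment was 1.62.

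Likeness to Vcan was measured over all 11 libraries as the root mean square distance between log2 (CPM + 1) profiles, centred within each experiment, among 11617 genes. The 5 nearest genes were Mtap7d3 (distance 0.157), Zfp91 (0.185), Tpr (0.192), Rev3l (0.193) and Mrc2 (0.195). Zfp91 had 25.9, 31.5 and 9.67 CPM in Ift88 knockout libraries, against 5.16 and 4.48 CPM in wild-type libraries, and Tpr had 89.2, 96.0 and 33.7 CPM against 19.7 and 16.03 CPM. Both repeat the order of libraries seen for Vcan, with knockout replicate 2 highest and wild-type replicate 2 lowest. As both were picked for likeness to Vcan over these same libraries, this order is no further result. None of the other 7 genes was near Vcan by this measure: the closest, Hyal1, ranked 2697 at a distance of 0.782, Hapln1 ranked 7426 and Has2 ranked 9347, and Acan was not ranked because its mean count was under 50 in the Ift88 experiment.

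A wider list of 69 other genes of these pathways, grouped by role, was read from the same fits. In the Ift88 experiment 60 of the 69 were tested and none was called by edgeR or DESeq2. At an unadjusted p under 0.05 edgeR listed 2 of the 60, Itih5 and Csgalnact1, beside 856 of all 14244 genes. The log2 fold change was positive for 41 and negative for 19 of the 60, with a median of 0.36, against -0.01 over all genes tested. These values are not corrected for transcript length, with which fold changes in this experiment rose. The part of length in this difference was not tested. Knockout libraries lay above both wild-type libraries for 9 of the 60 (15%), close to the 15.4% of all genes, and below both for 1, beside 7.55% of all genes.

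Among the enzymes that build chondroitin and dermatan sulfate chains, 24 of 25 were tested in the Ift88 experiment, and none was called. Knockout libraries lay above both wild-type libraries for 6 of these 24 (Xylt2, Csgalnact1, Chpf, Dse, Dsel and Ust) and below both for 1 (Csgalnact2), beside 15.4% and 7.55% of all genes. Csgalnact1, which adds the first sugar that commits a chain to chondroitin, had 64.4, 24.1 and 33.7 CPM in knockout libraries, against 8.34 and 17.2 CPM in wild-type libraries. Dse and Dsel, epimerases that turn chondroitin into dermatan sulfate, had 42.7 to 68.7 and 38.1 to 40.0 CPM in knockout libraries, against 19.4 to 38.6 and 4.90 to 30.3 CPM in wild-type libraries. The log2 fold changes were 1.61 ± 0.61 for Csgalnact1 (edgeR adjusted p 0.802), 0.94 ± 0.43 for Dse and 1.15 ± 0.70 for Dsel. The 2 enzymes of this role with the highest mean CPM over both experiments had overlapping groups: Fam20b, the xylose kinase, had a log2 fold change of -0.31 ± 0.43, and Chsy1, a chondroitin synthase, of 0.36 ± 0.41.

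Among proteins that bind and cross-link hyaluronan, Itih5, a heavy chain of the inter-alpha-trypsin inhibitor family, had 182, 128 and 52.0 CPM in knockout libraries, against 28.0 and 25.4 CPM in wild-type libraries. All knockout libraries were above both wild-type libraries, which lay close together as for Vcan. Its log2 fold change was 2.04 ± 0.62 (edgeR adjusted p 0.802). Ptx3, a pentraxin that organises hyaluronan, had 4.46 to 20.6 CPM in knockout libraries, against 5.38 and 8.35 CPM in wild-type libraries, with overlapping groups.

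Among the receptors, Lyve1, the hyaluronan receptor of lymphatic vessels and some macrophages, had 12.4, 36.5 and 14.98 CPM in knockout libraries, against 0 and 8.83 CPM in wild-type libraries. The groups did not overlap. The summed level of 12 leukocyte and macrophage markers was 240 to 412 CPM in knockout libraries, against 192 and 467 CPM in wild-type libraries, which overlapped. Of these markers, Mrc1 and Itgam were above both wild-type libraries in every knockout library, Lyz2 was below both, and the others overlapped. Their part in the Lyve1 result was not tested. The log2 fold change of Lyve1 was 2.30 ± 1.88. Stab1, a scavenger receptor of hyaluronan, and Hmmr, a hyaluronan-binding protein of dividing cells, had overlapping groups, with log2 fold changes of 0.72 ± 0.52 and 0.42 ± 0.86.

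The other lecticans and link proteins had low levels. Ncan and Bcan, the lecticans of brain, were at most 0.574 CPM in any Ift88 knockout library and 0.0955 CPM in any Ift88 wild-type library, and at most 0.514 and 0.666 CPM in S14R/+ and Dzip1 wild-type libraries. Hapln3, which lies 2 bases from Acan on the opposite strand, had 0.471 to 0.797 CPM in Ift88 knockout libraries, against 0.0744 and 0.541 CPM in wild-type libraries, and 1.35 to 1.48 CPM in S14R/+ libraries, against 1.26 to 1.80 CPM in Dzip1 wild-type libraries. Hapln4 was at most 0.225 CPM in any library. Of the other synthases, Has1 had 2.23, 4.42 and 0 CPM in Ift88 knockout libraries, against 0.0318 and 17.2 CPM in wild-type libraries, so wild-type replicate 2 alone was high, and Has3 had 0 to 2.71 CPM against 0.191 and 1.86 CPM. In S14R/+ leaflets, where Has2 averaged 24.8 CPM, Has1 averaged 0.103 CPM and Has3 2.66 CPM.

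The sugar precursor and breakdown enzymes with the highest mean CPM over both experiments had overlapping groups. Ugp2, which makes UDP-glucose, had 294 to 352 CPM in Ift88 knockout libraries, against 471 and 162 CPM in wild-type libraries, and Uap1, which makes UDP-N-acetylglucosamine, had 65.1 to 79.6 CPM against 55.4 and 162 CPM. Tmem2, a cell-surface hyaluronidase also called Cemip2, had 121 to 202 CPM in knockout libraries, against 27.3 and 191 CPM in wild-type libraries. Hexa, a lysosomal hexosaminidase, had 143 to 199 CPM in knockout libraries, against 125 and 356 CPM in wild-type libraries. Gfpt1, the entry enzyme of the hexosamine pathway, was the one gene of these roles, apart from Hyal1, with all knockout libraries above both wild-type libraries, at 22.2, 30.9 and 23.03 CPM against 8.41 and 16.6 CPM, with a log2 fold change of 0.94 ± 0.50. Of the lysosomal enzymes that break down sulfated chains, Ids had a log2 fold change of 0.41 ± 0.51 and Arsb of 0.43 ± 0.69, and all 4 listed had overlapping groups.

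**Figure D4:**
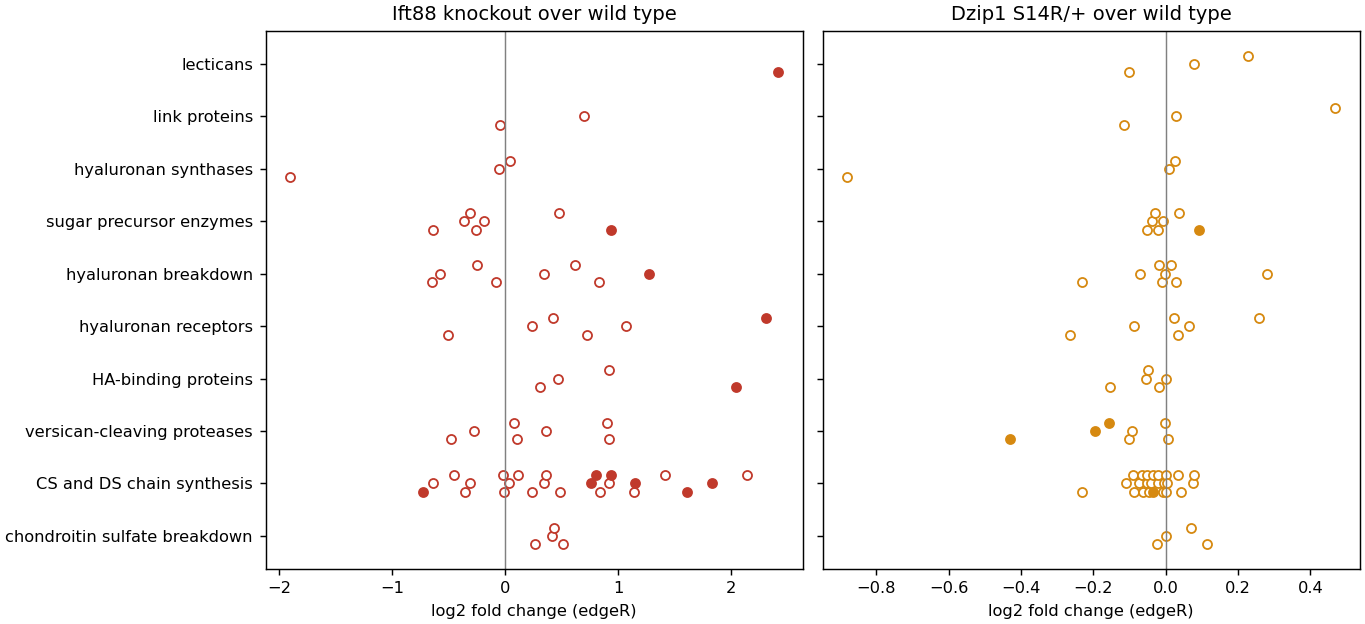
Fitted log2 fold change of Ift88 knockout over wild type (left) and Dzip1 S14R/+ over wild type (right) for the tested genes of the wider list and the 8 genes, 1 point per gene, by role, on axes of different scale; CS and DS stand for chondroitin and dermatan sulfate and HA for hyaluronan. Filled points mark genes whose 2 groups did not overlap; Acan and Itih2, at 0 counts in both Ift88 wild-type libraries, are left out on the left. The 3 filled points among versican-cleaving proteases on the right are Adamts20, Adamts5 and Adamts8, at -0.43, -0.20 and -0.16.

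In the Dzip1 experiment 62 of the 69 genes were tested. None was called by edgeR or DESeq2, 22 had a positive and 40 a negative log2 fold change, and the median was -0.02, against -0.0003 over all genes. S14R/+ libraries lay above all wild-type libraries for 1 of the 62 (Pgm3) and below for 4 (Adamts5, Adamts8, Adamts20 and Chpf2), which is 1.61% and 6.45%, beside the 4.58% and 5.86% of all genes given above. At an unadjusted p under 0.05 edgeR listed 3 of the 62 (Adamts5, Adamts8 and Adamts20), beside 959 of all 16160 genes.

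Of the 7 listed proteases that cut versican and aggrecan, 3 had every S14R/+ library below every wild-type library, as had 5.86% of all genes, and they are 3 of the 4 such genes among the 62. Adamts8 had 48.3, 46.6 and 46.6 CPM in S14R/+ libraries, against 54.1, 50.3 and 54.7 CPM in wild-type libraries, a log2 fold change of -0.16 ± 0.04. Adamts5, a major versican- and aggrecan-cleaving enzyme, had 30.1, 31.0 and 28.4 CPM in S14R/+ libraries, against 32.6, 33.4 and 37.3 CPM in wild-type libraries, a log2 fold change of -0.20 ± 0.06. Adamts20 had 3.39, 3.20 and 3.51 CPM in S14R/+ libraries, against 5.42, 3.84 and 4.47 CPM in wild-type libraries, a log2 fold change of -0.43 ± 0.14. The edgeR adjusted p was 0.822 for each, and Adamts5 and Adamts20 were singled out after their values were seen. Adamts1, the second most abundant of the 7 over both experiments, had 195 to 218 CPM in S14R/+ libraries and 203 to 211 CPM in wild-type libraries; its log2 fold change was 0.0061 ± 0.04. In the Ift88 experiment all 7 proteases had overlapping groups; Adamts8 had 86.9, 681 and 451 CPM in knockout libraries, against 34.9 and 1114 CPM in wild-type libraries.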

How the data were processed

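Total RNA of mitral leaflets was column-purified and DNase-treated, and libraries were prepared from it with the SMART-Seq v4 kit for small RNA amounts, per the labels' protocols. The submitters' processing notes name build GRCm38 and the tools cutadapt 1.11, FastQC 0.11.5, HTSeq, DESeq and DESeq2. No aligner, annotation or strand setting is given in the sources used here. The deposited tables hold raw counts per gene and library, per the file headers. The authors also deposited, per the file headers, a signal (the mean of scaled counts), log2 fold changes with their standard errors, a score (the Wald statistic) and a p-value with its adjusted value. Columns were matched to samples by title or description, and 0 count columns were left unused.

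CPM is a count over the library total in M. Each table was fitted alone across all genes with edgeR 4.0.16 under R 4.3.3 (TMM, filterByExpr at its defaults, quasi-likelihood test), adjusted by Benjamini-Hochberg over all genes tested, with a threshold of 0.05. All 8 genes passed the filter on low counts in both experiments. Alternatives were DESeq2 1.42.0, limma-voom 3.58.1, other scalings and filters, each library left out, the IR28N-titled libraries alone and a length correction (lowess of count on GENCODE M21 transcript length, span 0.3). The edgeR fit was also run on simulated counts with known fold changes. How many of these it recovered is not given here. Of 28591 gene symbols 26435 had a length. The deposited Dzip1 statistics had a Spearman correlation of -0.594 across genes with S14R/+ over wild type as labelled and 0.957 with the last 3 count columns over the first 3, so they were not used for results; for Ift88 the correlation with the labelled contrast was 0.859.

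The 8 genes, the wider list and the marker lists were chosen with earlier results of these data known. From the wider list the 2 genes with the highest mean CPM in each role were named, with any others named for non-overlapping groups after their values were seen. The 5 genes nearest to Vcan were taken among genes with a mean count of at least 50 in both experiments.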

Additional observations from a re-analysis of the deposited data

How the results depend on the processing

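In the Ift88 experiment 0 genes and 0 of the 8 were called; DESeq2 called 219 genes and 1 of the 8, the authors' deposited results 184 genes and 1 of the 8, and edgeR with 1 library left out 0 to 187 genes (187 without wild-type replicate 1) and 0 of the 8. Of 87 fold changes of the 8 genes under settings other than a left-out library, 78 kept their direction and side of the threshold, 2 (Vcan with DESeq2 and in the deposited table) passed it and 7 changed sign: Hapln1 (0.61) and Has2 (0.11) with limma-voom, Cd44 (-0.29) and Ugdh (-0.22) with length correction, and Hapln1 (2.82), Has2 (1.94) and Hyal2 (0.50) in the IR28N libraries. With 1 library left out the log2 fold change ran from -0.96 to 2.53 for Hapln1, -0.94 to 2.29 for Has2, -0.46 to 1.49 for Cd44, -1.25 to 0.30 for Hyal2, -0.13 to 1.43 for Ugdh, 0.51 to 2.85 for Hyal1 and 2.11 to 2.78 for Vcan (2.06 to 2.72 with DESeq2). Acan could not be fitted at a mean count of at least 50 or without knockout replicate 2 or 3. In the Dzip1 experiment 0 genes were called, against 14 in the deposited table and 0 to 10 with 1 library left out. Of 80 fold changes 8 changed sign, all near 0: Has2 (-0.0029) with library totals, Hyal1 with no filter (0.00042) and length correction (0.0084), and in the deposited table, which follows another grouping of libraries, Vcan (-0.049), Cd44 (-0.074), Hyal1 (0.030), Hyal2 (0.0084) and Ugdh (0.043). With 1 library left out the ranges were -0.0084 to 0.15 for Vcan, -0.25 to 0.14 for Acan, -0.050 to 0.14 for Hapln1, -0.075 to 0.11 for Has2, -0.011 to 0.060 for Cd44, -0.069 to 0.050 for Hyal1, -0.050 to 0.0068 for Hyal2 and -0.043 to 0.0038 for Ugdh. With a prior of 0.25 CPM, 3 of the 5 genes nearest to Vcan (Zfp91, Tpr and Rev3l) were the same. Except where the construction of an alternative shows it (fewer libraries, another grouping), the cause of these differences was not tested. No paired analysis was possible because the labels give no shared replicate numbers; the IR28N prefix, held by 2 knockout and 1 wild-type libraries, gave the within-prefix values above. With 2 Ift88 wild-type libraries that stood apart, differences of the size of the standard errors given above were not detectable there. Larger ones also failed the edgeR threshold: Vcan, at a log2 fold change of 2.41 ± 0.62, had an edgeR adjusted p of 0.802.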
